A study of Mus musculus with 12 samples.

Results

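The proteasome genes were the 103 probe sets, of 45101 on the array, whose single gene symbol begins with Psma, Psmb, Psmc, Psmd, Psme, Psmf or Psmg and a digit. They belong to 49 of the 18193 genes that could be tested. Of these, 47 encode proteasome subunits, caps or assembly factors, and 2 only carry a matching name (Psmc3ip and Psme3ip1). RNA came from KH2 cells, a mouse embryonic stem (ES) cell line grown on feeder fibroblasts. The 4 groups of 3 arrays (A, B and C) held untreated cells (no RA) and cells kept for 2, 4 or 6 h in differentiation medium (DMEM with serum and non-essential amino acids) containing 0.3 µM retinoic acid (RA). The labels give the new medium and RA to the same cells, and do not say that untreated cells received that medium, so that medium and RA cannot be told apart in the comparisons with no RA. All groups were replated on gelatin before RNA was taken, and the protocols differ on whether the attached or the unattached cells were collected. Whether A, B and C came from separate cultures is not stated. The p-values therefore reflect the variation among these arrays, which may be technical only.

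The proteasome degrades proteins that have been tagged with ubiquitin. Its 20S core is a barrel of stacked rings, with alpha subunits (Psma genes) at the ends forming the gate and beta subunits (Psmb genes) in the middle, some of which carry the proteolytic sites. The 19S cap recognises the tagged protein, removes the ubiquitin and unfolds the chain: its base holds a ring of ATPases (Psmc genes), and its lid holds the deubiquitinase and its scaffold. Other caps (Psme genes) can replace the 19S cap, and dedicated chaperones (Psmg genes for the core, Psmd5, Psmd9 and Psmd10 for the base) help to build the particle without remaining in it. RA is a vitamin A derivative that binds nuclear receptors and starts differentiation of ES cells.

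The promoters of 4 members are given because the results below turn on them: Psmc4 and Psmc5, 2 ATPase genes that rose, Psme4, the alternative cap gene that fell, and Psmb5, a catalytic subunit gene that was called at no time. Each runs from 250 bases before to 50 bases after the RefSeq start site on GRCm38.p6, 5′ to 3′ on the strand of the gene. Capitals mark matches, on either strand, to 6 motifs: TGANNNNGC (the core of the antioxidant response element, bound by Nfe2l1 with small Maf proteins), CCAAT (bound by NF-Y), GCGCNNGCG (the core of the nuclear respiratory factor 1 site), CCGGAAG (bound by ETS factors), TGACGTCA (the cAMP response element) and AGGTCA (the short element recognised by nuclear receptors). Matches of different motifs may share bases, and matches of GCGCNNGCG on opposite strands overlap each other.
Psmc4, chr7:28050043-28050342, minus strand: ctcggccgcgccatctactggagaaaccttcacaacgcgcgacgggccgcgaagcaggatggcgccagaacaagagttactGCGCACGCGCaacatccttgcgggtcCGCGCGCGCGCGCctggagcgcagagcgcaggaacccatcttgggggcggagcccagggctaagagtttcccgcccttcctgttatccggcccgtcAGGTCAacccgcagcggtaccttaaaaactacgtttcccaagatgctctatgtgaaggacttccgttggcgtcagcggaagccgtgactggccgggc
Psmc5, chr11:106255935-106256234, plus strand: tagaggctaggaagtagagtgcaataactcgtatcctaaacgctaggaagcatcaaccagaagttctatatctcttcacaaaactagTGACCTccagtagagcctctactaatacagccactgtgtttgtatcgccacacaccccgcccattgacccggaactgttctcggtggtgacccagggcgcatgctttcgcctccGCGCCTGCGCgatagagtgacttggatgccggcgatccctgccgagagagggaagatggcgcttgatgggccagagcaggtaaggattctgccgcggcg
Psme4, chr11:30771525-30771824, plus strand: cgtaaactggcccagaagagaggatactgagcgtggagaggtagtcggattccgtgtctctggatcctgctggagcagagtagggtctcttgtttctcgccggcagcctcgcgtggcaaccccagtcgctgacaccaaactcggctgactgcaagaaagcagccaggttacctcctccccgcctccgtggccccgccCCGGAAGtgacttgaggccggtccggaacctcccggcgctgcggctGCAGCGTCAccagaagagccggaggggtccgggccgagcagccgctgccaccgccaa
Psmb5, chr14:54617946-54618245, minus strand: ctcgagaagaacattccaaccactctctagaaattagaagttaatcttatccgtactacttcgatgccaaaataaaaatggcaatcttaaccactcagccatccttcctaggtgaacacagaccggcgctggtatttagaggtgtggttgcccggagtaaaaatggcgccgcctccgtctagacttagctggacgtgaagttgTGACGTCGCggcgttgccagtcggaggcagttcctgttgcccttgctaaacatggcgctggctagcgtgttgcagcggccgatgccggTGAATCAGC
The windows of Psmc4 and Psmc5 both held GCGCNNGCG and AGGTCA, the window of Psme4 held CCGGAAG and TGANNNNGC, and the window of Psmb5 held TGANNNNGC at positions -47 and 42 from the start site. A match is a stretch of letters and not a measured binding site.

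Most of the probe sets gave bright signals. Values are deposited log2 signals, so that a difference of 1 is a doubling. The median of all deposited values was 6.07 (6.05 to 6.10 on single arrays). Of the 103 probe sets, 82 lay above that median of all values on all 12 arrays, 16 below it on all arrays and 5 on both sides of it. Each gene was represented by its brightest probe set, and 48 of the 49 lay above the median throughout. The exception was Psmb11, the thymus-specific catalytic subunit, which lay below it on all 12 arrays. Replicates correlated at 0.993 to 0.998 over all probe sets, with untreated C lowest against A and B. In that array the mean log2 signal of 22 feeder fibroblast markers was 8.79, against 9.20 and 9.50 in untreated A and B and 9.23 to 9.49 in the RA arrays. The mean of 8 ES cell markers was 12.90 to 12.96 on the arrays of no RA and 2 h and 12.68 to 12.80 on those of 4 and 6 h. Against no RA, 1 of the 8 was called higher at 2 h (1.5% of all genes). Sox2, Zfp42, Esrrb and Tdgf1, 4 of the 8, were called lower at both 4 h (14.1% of all genes) and 6 h (14.7%). Utf1 was called higher at 6 h (15% of all genes). The part of this movement in the proteasome results was not tested. The median within-group SD was 0.056 for the 49 members and 0.11 for all genes.

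Differences between the groups were small for most members. Calls were made in limma, a linear model of all 12 arrays, where the p adjusted by Benjamini-Hochberg over all 18193 genes was under 0.05. At 2 h 0 of 49 members were called, where 2.68% of all genes were (1.5% higher and 1.19% lower), with 4 members and 3170 genes at an unadjusted p under 0.05. At 4 h 8 members were called (16.3%; 26.9% of all genes), 5 higher and 3 lower, against 12.8% and 14.1% of all genes. At 6 h 14 members were called (28.6%; 29.7% of all genes), 10 higher and 4 lower, against 15% and 14.7%. The share of members called at 6 h was therefore near that of all genes, and at 4 h it was below it in this fit (counts under other settings are given below). The 8 members called at 4 h were called in the same direction at 6 h: Psmc4, Psmc5, Psmd9, Psmg3 and Psmc3ip were higher, and Psme4, Psma8 and Psmd5 were lower. Called only at 6 h were Psmc1, Psmd6, Psmd10, Psmf1 and Psme3ip1, which were higher, and Psmb9, which was lower; whether the effect differed between 4 and 6 h is given by the comparison of 6 h with 4 h below. The comparisons with no RA share the 3 untreated arrays. In bulk RNA, fewer cells of a type and less RNA per cell cannot be told apart.

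**Figure D1:**
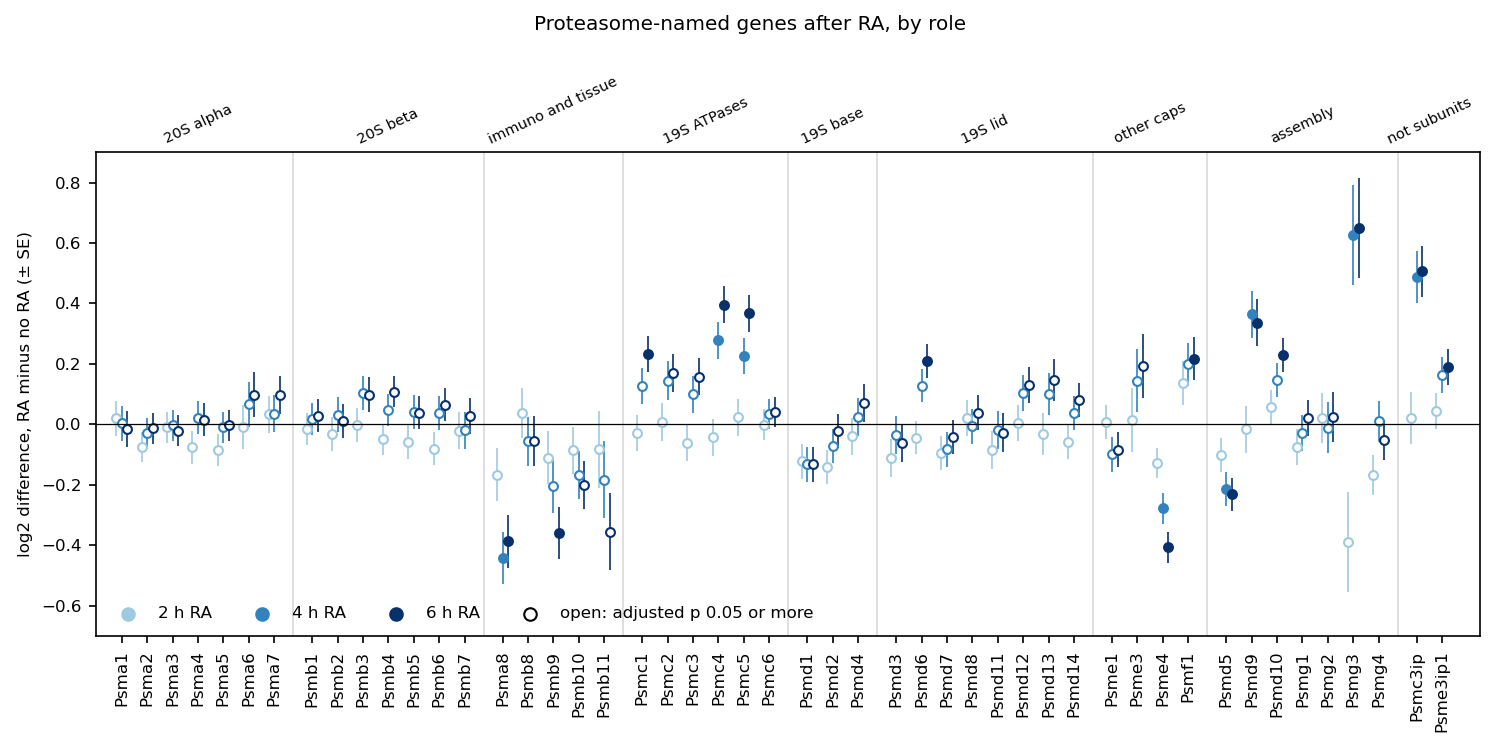
Log2 difference from no RA (vertical axis, ± SE of the limma fit) for the 49 members (horizontal axis, grouped by role) at 2, 4 and 6 h; filled points are called at an adjusted p under 0.05 over all genes. The 14 constitutive core subunits lie between -0.08 and 0.11 at every time, the 6 ATPases all lie above 0 at 4 and 6 h, and the largest differences belong to Psmg3.

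The median difference of the 47 proteasome genes from no RA was -0.04 at 2 h, 0.02 at 4 h and 0.03 at 6 h, against 0.0043, 0.0023 and -0.013 for all genes. At 2 h 35 of the 47 lay below 0, at 4 h 20 and at 6 h 18, against 8868, 9014 and 9589 of all 18193 genes. Whether the members differ from all genes in this was not tested. In 33 of the 49 members no comparison among the 4 groups was called, and 1 member, Psmg3, differed by 2-fold or more in any comparison. The counts of uncalled members and of 2-fold differences were not made for all genes, so they do not set the members apart.

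None of the 14 genes of the constitutive 20S core was called against no RA at any time. Under 2 other settings 1 core gene was called at 6 h: Psma1 with the mean of its probe sets (0.28, adjusted p = 0.0086) and Psmb4 with a trended, robust variance (0.11, adjusted p = 0.019). The differences lay between -0.08 and 0.03 at 2 h, -0.03 and 0.10 at 4 h, and -0.02 and 0.11 at 6 h. The 95% confidence intervals at 6 h reached from -0.14 to 0.26, that is, from a decrease of 9.44% to an increase of 19.7%. Each interval is for 1 gene and its brightest probe set only. They do not bound the other sets of a gene: the mean of the sets of Psma1, 0.28, lay outside them. The mean log2 signal of the 14 genes was 12.63 ± 0.01 (SD, n = 3 arrays) without RA, 12.60 ± 0.04 at 2 h, 12.66 ± 0.02 at 4 h and 12.67 ± 0.02 at 6 h. Of the alpha ring, Psma1 to Psma7, 3 genes lay above 0 and 4 below at 6 h. Of the beta ring, Psmb1 to Psmb7, all 7 lay below 0 at 2 h (-0.08 to -0.0023) and all 7 above 0 at 6 h (0.01 to 0.11), with no gene called.

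The subunits that carry the proteolytic sites were followed array by array. Psmb5, with the chymotrypsin-like site, measured 13.00, 12.94 and 12.93 on untreated arrays A, B and C, 12.89, 12.94 and 12.86 at 2 h, 12.96, 12.97 and 13.05 at 4 h, and 12.94, 13.02 and 13.03 at 6 h. Psmb6, with the caspase-like site, measured 12.59, 12.56 and 12.58 without RA, 12.53, 12.54 and 12.41 at 2 h, 12.60, 12.58 and 12.65 at 4 h, and 12.63, 12.67 and 12.61 at 6 h. Psmb7, with the trypsin-like site, measured 13.27, 13.22 and 13.26 without RA, 13.18, 13.20 and 13.31 at 2 h, 13.19, 13.29 and 13.22 at 4 h, and 13.31, 13.20 and 13.33 at 6 h. Untreated and 6 h arrays overlapped for Psmb5 and Psmb7. For Psmb6 the 6 h arrays all lay just above the untreated ones, with a difference of 0.07 ± 0.06 (SE, n = 3 against 3; limma adjusted p = 0.43). The only core gene called between any groups was Psmb4, a structural beta subunit, which was 0.16 ± 0.05 higher at 6 h than at 2 h (limma adjusted p = 0.035). That call was lost on leaving out any 1 of the 6 arrays (0.14 to 0.17, adjusted p up to 0.11).

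Of the 5 inducible and tissue-specific core subunits, 1 was called lower at 4 h (14.1% of all genes) and 2 at 6 h (14.7%), and the others had differences from -0.21 to -0.06 at 4 h and -0.36 to -0.06 at 6 h. Psma8, the testis-specific alpha subunit that can stand in for Psma7, measured 8.48, 8.54 and 8.66 without RA, 8.41, 8.40 and 8.37 at 2 h, 8.04, 8.16 and 8.16 at 4 h, and 7.99, 8.18 and 8.36 at 6 h. The untreated arrays lay above all 6 arrays of 4 and 6 h. The difference was -0.44 ± 0.09 at 4 h (limma adjusted p = 0.0028) and -0.39 ± 0.09 at 6 h (adjusted p = 0.0055), or 1.36-fold and 1.31-fold lower.

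Psmb9 is the interferon-inducible subunit that replaces Psmb6 in the immunoproteasome, the form that favours peptides for antigen presentation. It measured 7.38, 7.34 and 7.52 without RA, 7.37, 7.31 and 7.23 at 2 h, 7.13, 7.28 and 7.22 at 4 h, and 7.13, 6.87 and 7.17 at 6 h. All 6 h arrays lay below all untreated arrays, by -0.36 ± 0.09 (limma adjusted p = 0.0078); at 4 h the difference was -0.21 ± 0.09 (adjusted p = 0.10). Psmb10, which replaces Psmb7, measured 9.76, 9.72 and 9.67 without RA, 9.67, 9.72 and 9.50 at 2 h, 9.45, 9.63 and 9.57 at 4 h, and 9.44, 9.64 and 9.47 at 6 h. Its untreated arrays also lay above those of 4 and 6 h, but the difference at 6 h, -0.20 ± 0.08, did not pass (adjusted p = 0.077). Psmb8, which replaces Psmb5, measured 6.62, 6.74 and 6.75 without RA, 6.72, 6.80 and 6.70 at 2 h, 6.66, 6.67 and 6.60 at 4 h, and 6.75, 6.74 and 6.44 at 6 h. The untreated arrays of Psmb8 overlapped those of every RA time (-0.06 ± 0.08 at 6 h, adjusted p = 0.68), and its 4 h arrays lay below its 2 h arrays without a call (-0.10 ± 0.08, adjusted p = 0.46). Psmb11 measured 5.08, 5.01 and 5.29 without RA, 5.27, 5.14 and 4.72 at 2 h, 5.01, 5.03 and 4.79 at 4 h, and 4.84, 4.78 and 4.70 at 6 h, all below the array medians; its 6 h arrays lay below the untreated ones (-0.36 ± 0.13, adjusted p = 0.055).

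**Figure D2:**
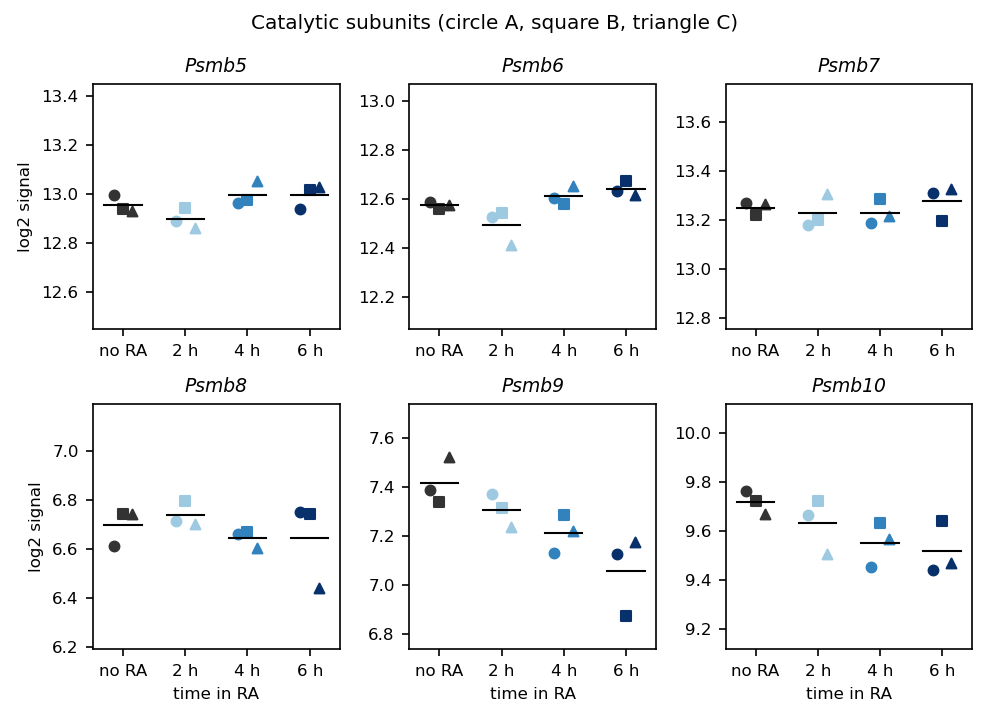
Log2 signal on each of the 12 arrays (vertical axis, a scale of equal span but different level in each panel) by time in RA (horizontal axis) for the constitutive catalytic subunits (top) and the inducible subunits that replace them (bottom); bars are group means. Psmb5 and Psmb7 overlap between no RA and 6 h, whereas the 6 h arrays of Psmb9 and Psmb10 all lie below the untreated ones.

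Interferon signalling and antigen presentation genes are known to be induced together with these subunits. Of 14 measured, 0 were called at 2 h (2.68% of all genes), 1 at 4 h (7.14%; 26.9% of all genes) and 4 at 6 h (28.6%; 29.7% of all genes), the last being near the share of all genes. Tapbp, the peptide-loading chaperone tapasin, was lower by -0.18 ± 0.06 at 4 h and -0.25 ± 0.06 at 6 h (limma adjusted p = 0.041 and 0.0072). At 6 h the peptide transporter Tap2 (-0.29 ± 0.08) and the class I molecule H2-K1 (-0.30 ± 0.08) were lower and the interferon signalling factor Irf9 was higher (0.22 ± 0.08), with limma adjusted p-values of 0.020, 0.016 and 0.043. The mean log2 signal of the 14 genes was 7.24 to 7.34 without RA and 7.19 to 7.23 at 6 h. Immune cell markers averaged 4.4 to 4.7 over 4 genes on all 12 arrays, and 3 or 4 of the 4 lay below the median of all deposited values on each. Of the 22 feeder markers 0 were called at 2 h (2.68% of all genes). Col5a2 alone was called at 4 h, higher, and Fn1 alone at 6 h, lower (4.55% each time, against 26.9% and 29.7% of all genes). The median difference of these markers at 6 h was 0.12 from no RA, where untreated C was low. From 2 to 6 h it was -0.07, with 14 of 22 below 0, 1 called higher and 2 lower (13.6%, against 32.1% of all genes). Their median within-group SD was 0.24, against 0.11 for all genes. The part of these markers in the difference of Psmb9 was not tested.

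The ATPase ring of the 19S base rose in part. Of its 6 genes 2 were called higher at 4 h (12.8% of all genes) and 3 at 6 h (15%), and all 6 lay above 0 at both times, with medians of 0.14 and 0.20. Their mean log2 signal was 11.96 ± 0.07 (SD, n = 3 arrays) without RA, 11.94 ± 0.04 at 2 h, 12.11 ± 0.03 at 4 h and 12.18 ± 0.01 at 6 h. Untreated C was the lowest of its group (12.02, 11.97 and 11.88 on A, B and C). Whether the ATPase genes differ as a group from the core genes was not tested.

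Psmc4 (probe set 1416291_at) measured 11.56, 11.47 and 11.36 without RA, 11.46, 11.41 and 11.39 at 2 h, 11.71, 11.75 and 11.77 at 4 h, and 11.84, 11.84 and 11.91 at 6 h. The 4 h arrays lay above every earlier array and the 6 h arrays above those of 4 h. The difference from no RA was 0.28 ± 0.06 at 4 h and 0.40 ± 0.06 at 6 h (limma adjusted p = 0.0053 and 0.00049), or 1.21-fold and 1.32-fold. Psmc5 (1415740_at), another subunit of the ring, measured 12.10, 12.05 and 11.92 without RA, 12.08, 12.03 and 12.03 at 2 h, 12.23, 12.21 and 12.30 at 4 h, and 12.37, 12.41 and 12.39 at 6 h. It followed the same order, with differences of 0.23 ± 0.06 and 0.37 ± 0.06 (adjusted p = 0.016 and 0.00072). The 4 h call of Psmc5 was lost without replicate C of 4 h (0.20, adjusted p = 0.061). Psmc1 rose by 0.23 ± 0.06 at 6 h (adjusted p = 0.011). In a fit of only the 6 arrays compared, Psmc1 at 6 h and Psmc5 at 4 h did not pass (limma adjusted p = 0.062 and 0.089). Without untreated C the rises were smaller but still called. They were 0.34 for Psmc4, 0.31 for Psmc5 and 0.19 for Psmc1 at 6 h, and 0.23 for Psmc4 and 0.17 for Psmc5 at 4 h. Psmc2 (0.17 ± 0.06) and Psmc3 (0.16 ± 0.06) did not pass at 6 h (adjusted p = 0.066 and 0.074), although their 6 h arrays did not overlap the untreated ones, and Psmc6 stood at 0.04 ± 0.05 (adjusted p = 0.61).

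The remaining parts of the 19S cap moved less. The scaffold and ubiquitin receptor subunits of the base, Psmd1, Psmd2 and Psmd4, were not called, with differences of -0.13, -0.02 and 0.07 at 6 h. Psmd1 was at -0.12, -0.13 and -0.13 at 2, 4 and 6 h and its arrays did not overlap with the untreated ones at any of the 3 times (adjusted p = 0.30, 0.12 and 0.11). Of the 8 lid genes, Psmd6 was called, higher by 0.21 ± 0.06 at 6 h (limma adjusted p = 0.013), and the others lay between -0.06 and 0.15. Fitted to only the 6 arrays compared, Psmd6 did not pass (limma adjusted p = 0.075). Psmd14, the lid enzyme that cuts ubiquitin from the substrate, measured 12.93, 12.86 and 12.82 without RA, 12.83, 12.81 and 12.79 at 2 h, 12.89, 12.91 and 12.93 at 4 h, and 12.96, 13.02 and 12.88 at 6 h. Its groups at no RA and 6 h overlapped (0.08 ± 0.06, adjusted p = 0.33).

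Among the other caps, the gene for the PA200 activator fell. Psme4 encodes PA200, a large nuclear cap of the core linked to the breakdown of histones. Its brightest probe set (1426823_s_at) measured 12.18, 12.21 and 12.25 without RA, 12.12, 12.04 and 12.10 at 2 h, 11.92, 11.95 and 11.94 at 4 h, and 11.80, 11.82 and 11.81 at 6 h. The 4 groups did not overlap, and each later group lay below the one before. The differences from no RA were -0.13 ± 0.05 at 2 h (limma adjusted p = 0.22), -0.28 ± 0.05 at 4 h (0.0018) and -0.41 ± 0.05 at 6 h (0.00011), the last being 1.33-fold lower. Both calls held on leaving out each of the arrays compared.

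Psme1 encodes the alpha subunit of PA28, the interferon-inducible cap that opens the gate without ATP. It measured 11.52, 11.55 and 11.67 without RA, 11.55, 11.62 and 11.59 at 2 h, 11.50, 11.50 and 11.45 at 4 h, and 11.48, 11.48 and 11.53 at 6 h, and was not called (-0.08 ± 0.06 at 6 h, adjusted p = 0.33). Psme3, the nuclear PA28 gamma, measured 10.67, 10.47 and 10.61 without RA, 10.50, 10.52 and 10.77 at 2 h, 10.73, 10.87 and 10.58 at 4 h, and 10.90, 10.60 and 10.83 at 6 h. Its groups overlapped, with a wide interval at 6 h of -0.04 to 0.42 around a difference of 0.19. The partner of Psme1 in PA28 shares its only named probe set with a copy of the gene and was not analysed here. Psmf1, named as an inhibitor of the core, measured 9.37, 9.54 and 9.55 without RA, 9.64, 9.70 and 9.54 at 2 h, 9.63, 9.67 and 9.75 at 4 h, and 9.68, 9.65 and 9.79 at 6 h. The 6 h arrays lay above the untreated ones, by 0.22 ± 0.07 (adjusted p = 0.038), and this call was lost without untreated A or any 1 of the 6 h arrays (adjusted p up to 0.14).

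Among the assembly factors was the gene with the largest differences from no RA of all members, Psmg3. Psmg3 encodes a chaperone of the alpha ring that works as a dimer with the product of Psmg4. It measured 9.16, 8.92 and 9.76 without RA, 8.98, 8.95 and 8.73 at 2 h, 9.86, 9.99 and 9.86 at 4 h, and 9.85, 9.90 and 10.04 at 6 h. Arrays of 4 and 6 h lay above all others, but untreated C was close to them, and its distance from untreated A and B exceeded every spread within the RA groups. The difference from no RA was -0.39 ± 0.17 at 2 h, where it did not pass (adjusted p = 0.25; -0.15 without untreated C), 0.63 ± 0.17 at 4 h and 0.65 ± 0.17 at 6 h (limma adjusted p = 0.015 and 0.011). Without untreated C, the array with the lowest feeder markers, these values were 0.87 and 0.89 (adjusted p = 9.58e-05 and 5.79e-05). The 4 h call was lost without untreated B (0.45, adjusted p = 0.0503) and without replicate B of 4 h (0.58, adjusted p = 0.053). Neither the 4 h nor the 6 h call passed with only the 6 arrays compared (limma adjusted p = 0.069 and 0.056). From 2 h to 4 h, a comparison free of the untreated arrays, Psmg3 rose by 1.02 ± 0.17, or 2.02-fold (adjusted p = 0.0012). Its partner Psmg4 was not called in any comparison, at 0.01 and -0.05 at 4 and 6 h.

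Psmg1, part of the other alpha-ring chaperone, measured 11.89, 11.80 and 11.77 without RA, 11.74, 11.76 and 11.75 at 2 h, 11.73, 11.83 and 11.83 at 4 h, and 11.79, 11.83 and 11.92 at 6 h, and neither it nor its partner Psmg2 was called (0.02 ± 0.06 and 0.02 ± 0.08 at 6 h). The 3 chaperones of the ATPase ring were all called at 6 h (29.7% of all genes), in different directions. With only the 6 arrays compared, Psmd10 and Psmd5 did not pass at 6 h (limma adjusted p = 0.066 and 0.054), nor did Psmd5 at 4 h (0.076). The calls of Psmd9 rest on a single probe set, as given below. Psmd9 measured 8.80, 8.65 and 8.62 without RA, 8.73, 8.72 and 8.55 at 2 h, 8.98, 9.01 and 9.15 at 4 h, and 9.06, 8.94 and 9.07 at 6 h. Its 4 and 6 h arrays lay above all others, by 0.36 ± 0.08 and 0.34 ± 0.08 from no RA (limma adjusted p = 0.0043 and 0.0060). Psmd10, also known as gankyrin, was higher by 0.23 ± 0.06 at 6 h (adjusted p = 0.0090). Psmd5 measured 10.76, 10.76 and 10.84 without RA, 10.68, 10.68 and 10.70 at 2 h, 10.53, 10.64 and 10.56 at 4 h, and 10.53, 10.53 and 10.61 at 6 h. Untreated arrays of Psmd5 lay above all treated ones, and the fall of 0.21 ± 0.06 at 4 h and 0.23 ± 0.06 at 6 h passed (adjusted p = 0.013 and 0.0075), the former being lost without replicate A of 4 h (adjusted p = 0.054).

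**Figure D3:**
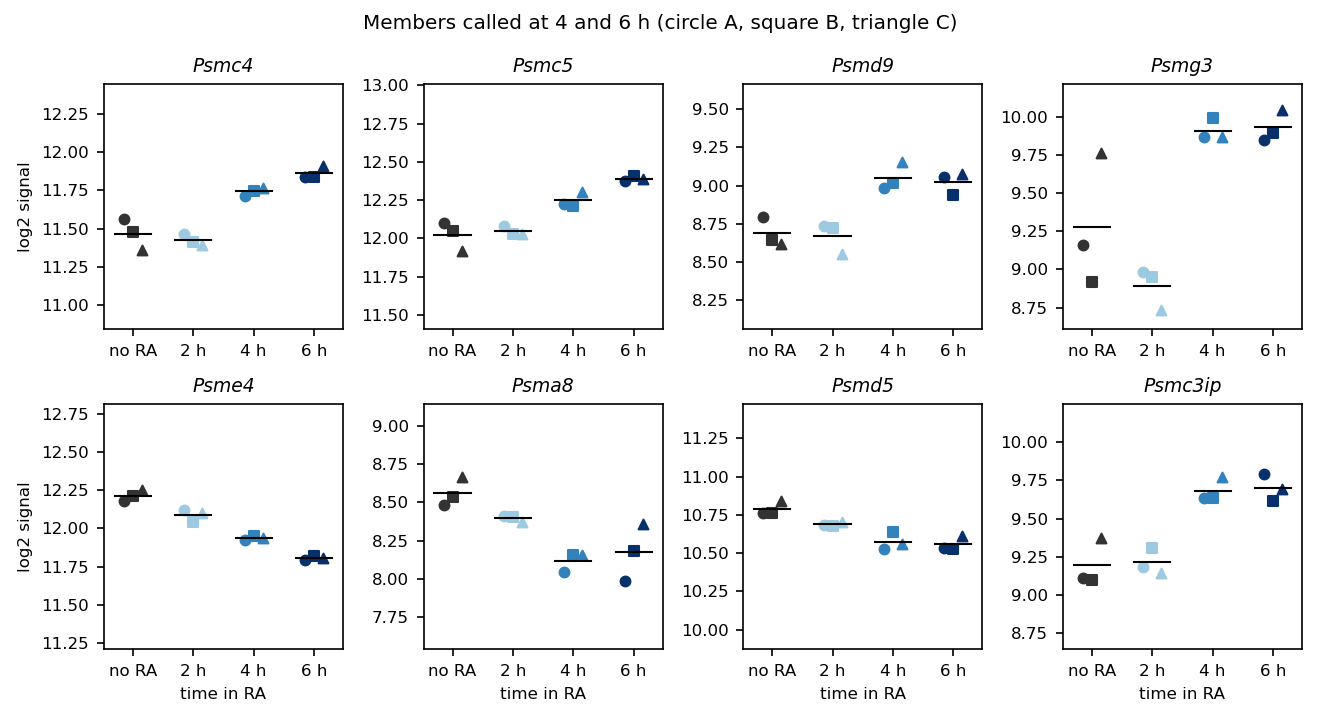
Log2 signal on each of the 12 arrays (vertical axis, a scale of different level in each panel) by time in RA (horizontal axis) for the 8 members called at both 4 and 6 h; bars are group means. In each panel the 4 and 6 h arrays do not overlap the untreated ones, and untreated C of Psmg3 (triangle, 9.76) lies apart from A and B.

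The 2 genes with a matching name only were both higher. Psmc3ip encodes a factor of meiotic recombination that was first found through the product of Psmc3. It measured 9.11, 9.10 and 9.37 without RA, 9.19, 9.31 and 9.15 at 2 h, 9.63, 9.64 and 9.78 at 4 h, and 9.79, 9.62 and 9.69 at 6 h. The arrays of 4 and 6 h lay above all others, by 0.49 ± 0.09 and 0.51 ± 0.09 from no RA (limma adjusted p = 0.0014 and 0.00088), and its second probe set rose by 0.43 and 0.45. Psme3ip1, which encodes a partner of PA28 gamma, was 0.19 ± 0.06 higher at 6 h (adjusted p = 0.032), a call lost without untreated B or C or replicate A or C of 6 h.

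Of the steps between neighbouring RA times, the one from 2 to 4 h held all calls. From 2 to 4 h 7 of 49 members were called (14.3%; 24.6% of all genes), 6 higher (12.7% of all genes) and 1 lower (11.9%): Psmg3, Psmd9, Psmc3ip, Psmc4, Psmc5 and Psmd6 rose and Psma8 fell. Leaving out 1 array left 4 or 5 calls, since those of Psmc5 and Psma8 were lost whichever of the 6 arrays was left out and that of Psmd6 in 5 of 6 cases. From 4 to 6 h limma called 0 of 49 (0.588% of all genes, 0.313% higher and 0.275% lower), with 2 members at an unadjusted p under 0.05, against 2385 of all genes: Psmc5 (0.14 ± 0.06, adjusted p = 0.35) and Psme4 (-0.13 ± 0.05, adjusted p = 0.30). From 2 to 6 h 12 were called (24.5%; 32.1% of all genes), 10 higher (17.1% of all genes) and 2 lower (15.1%). These were the ATPases Psmc1, Psmc3, Psmc4 and Psmc5, with Psmd6, Psmb4, Psmd9, Psmd10, Psmg3 and Psmc3ip, all higher, and Psme4 and Psmb9, both lower. In that comparison the call of Psmb9 was lost in 5 of 6 cases of leaving out 1 array (-0.31 to -0.16, adjusted p up to 0.17), that of Psmd10 in 5 of 6 (0.13 to 0.20, adjusted p up to 0.13), and that of Psmc3 without replicate C of 2 h (0.18, adjusted p = 0.075) or of 6 h (0.20, adjusted p = 0.054). Between 2 and 6 h 4 of the 6 ATPase genes were thus called, by 0.22 to 0.44, and 1 of the 14 core genes.

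Groups of arrays often separated without a call. The arrays compared did not overlap for 12 members at 2 h against no RA (24.5%; 22.2% of all genes), 21 at 4 h (42.9%; 37%) and 24 at 6 h (49%; 39%). Between RA times this held for 28 members from 2 to 4 h (57.1%; 46%), 7 from 4 to 6 h (14.3%; 23.8%) and 29 from 2 to 6 h (59.2%; 51.9%). The share of members without overlap was near that of all genes at 2 h against no RA. It was lower from 4 to 6 h and higher in the other comparisons. The share called was in no comparison above that of all genes, and at 6 h against no RA it was near it. Whether either share differs from that of all genes was not tested.

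Different probe sets of a gene did not always move alike. Of the members 27 have several probe sets, up to 8 for Psmd11, and these can read different ends or transcript forms; brightness and specificity differ between them. Over all 45037 probe sets that are no control, 0 of the 103 were called at 2 h (1.81% of all), 18 at 4 h (17.5%; 18.7% of all) and 23 at 6 h (22.3%; 20.6% of all). Both probe sets of Psmc4 were higher at 6 h, by 0.40 ± 0.07 and 0.42 ± 0.08. Psme4 was lower in its 3 brightest sets, by -0.41, -0.38 and -0.41, whereas a dim set (1446464_at), below the median on 9 arrays, was called 0.56 higher from 2 to 6 h. With the mean of its 6 sets Psme4 remained lower than no RA at 4 h (-0.35, adjusted p = 0.0050) and 6 h (-0.23, adjusted p = 0.036), but the call from 2 to 6 h was lost (-0.04, adjusted p = 0.73).

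The brightest set of Psmc6 (1417771_a_at) stood at 0.04 ± 0.06 at 6 h, while the other sets, 1417770_s_at and 1417769_at, were called higher by 0.41 ± 0.08 and 0.50 ± 0.15 (adjusted p = 0.0040 and 0.035). For Psmf1 the brightest set gave 0.22 ± 0.08, not called among all probe sets (adjusted p = 0.063), and the 3 dimmer ones 0.48, 0.58 and 0.77, all called. In those 3 sets of Psmf1 untreated C was the lowest of all 12 arrays. For Psmd9 the brightest set alone was called against no RA. The mean of its 3 sets gave 0.06 at 4 h and 0.17 at 6 h, which did not pass (adjusted p = 0.64 and 0.10), so that the calls of Psmd9 rest on a single probe set. For Psma1 the brightest set gave -0.02 at 6 h and the others 0.33, 0.40 and 0.42, the last 2 called (adjusted p = 0.034 and 0.0043).

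**Figure D4:**
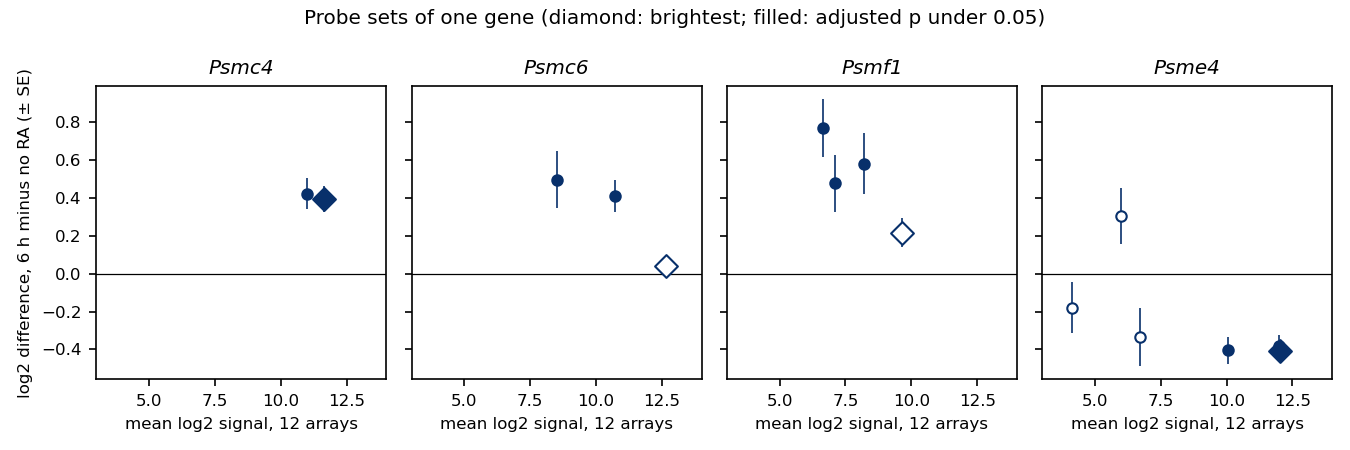
Log2 difference of 6 h from no RA (vertical axis, ± SE) against mean log2 signal over 12 arrays (horizontal axis) for each probe set of 4 members; diamonds are the brightest sets and filled symbols are called over all probe sets. The sets of Psmc4 lie at 0.40 and 0.42, while for Psmc6 and Psmf1 the dimmer sets lie above the brightest.

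Genes that work around the proteasome were read from lists of partners. Of 14 proteasome partners outside the name rule, 0 were called higher, and 1 was called lower at 2 h (7.14%; 1.19% of all genes), 4 at 4 h (28.6%; 14.1%) and 5 at 6 h (35.7%; 14.7%). Ecpas, the proteasome adaptor known as ECM29, was lower at all 3 times, by -0.42 ± 0.08, -0.57 ± 0.08 and -0.36 ± 0.08 (limma adjusted p = 0.022, 0.00043 and 0.0072). The ubiquilins Ubqln1 and Ubqln2, which carry tagged proteins to the cap, were lower by -0.28 and -0.24 at 6 h. The cap deubiquitinase Uchl5 was lower by -0.20, as was Zfand5, a ubiquitin-binding activator, by -0.21 (adjusted p = 0.0042, 0.0086, 0.021 and 0.0496 for the 4 genes). Of 7 genes for ubiquitin, its activating enzymes and the p97 unfoldase with its cofactors, 3 were higher and 1 lower at both 4 h (12.8% and 14.1% of all genes) and 6 h (15% and 14.7%). The p97 cofactors Nploc4, Ufd1 and Nsfl1c were 0.29 ± 0.07, 0.38 ± 0.08 and 0.32 ± 0.05 higher at 6 h, and Faf1, another p97 cofactor, was -0.30 ± 0.06 lower (limma adjusted p = 0.0071, 0.0032, 0.00088 and 0.0016).

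Of 9 genes for transcription factors of proteasome genes and the enzymes that activate them, 0 were called at 2 h (2.68% of all genes), 3 at 4 h (33.3%; 26.9%) and 5 at 6 h (55.6%; 29.7%). Nfe2l1, a known inducer of proteasome genes, was 0.19 ± 0.05 higher at 6 h, and Ngly1, the deglycosylase that activates its product, 0.40 ± 0.09 higher (limma adjusted p = 0.020 and 0.0041). Its small Maf partners were lower at 6 h, Maff by -1.13 ± 0.25 and Mafk by -0.40 ± 0.11 (adjusted p = 0.0048 and 0.016). Nfyb, a subunit of NF-Y, was higher by 0.77 ± 0.08 at 4 h and 0.49 ± 0.08 at 6 h (adjusted p = 5.72e-05 and 0.00083), and Nfya by 0.41 ± 0.07 at 4 h (adjusted p = 0.00092).

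Promoters of 41 of the 49 members, 44 windows in all, were found among 32851 RefSeq windows of the same 300 bases. CCGGAAG was in 38.6% of the members' windows and 8.86% of all windows. The other shares were 56.8% and 41.3% for TGANNNNGC, 20.5% and 12.1% for GCGCNNGCG, 25% and 16.3% for AGGTCA, and 36.4% and 37.4% for CCAAT. TGACGTCA was in 0 of 44 and 1.79% of all. The members' windows were richer in G and C, with a median of 58.2% against 52.7%. CCGGAAG was held by called and uncalled members alike, among them Psmc1, Psmd6, Psmg3 and Psme4 but also Psmc2, Psmc6, Psmd2 and Psmd11. No window was given for Psma8, Psmb1, Psmb2, Psmb7, Psmc3, Psmd3, Psmd7 and Psmg2.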

How the data were processed

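RNA from 12 samples was measured on Affymetrix mouse arrays. The authors deposited log2 signals for 45101 probe sets per array, per the file headers and labels; the normalization is not given in the sources used here. Limma 3.4.3 is named, with no role, in the submitters' processing notes. No further normalization was applied. Probe sets were named from the platform's annotation. Of all 45101, the 64 control sets included, 932 named several genes and 9211 none. Of the others, 34945 that are no control named 1 gene, and only these were used. For 34741 the gene identifier matched a mouse gene table, and no symbol needed changing. A gene with several probe sets was represented by its brightest, by mean over 12 arrays. A model of the 4 group means was fitted to the 12 arrays in limma 3.58.1 (R 4.3.3; lmFit, eBayes; 8 residual degrees of freedom), for 6 comparisons, with Benjamini-Hochberg adjustment over 18193 genes; a second fit took all 45037 probe sets. Errors are standard errors (SE) from that model except where marked SD. The fits were tested on simulated data. The number of arrays limits the precision of all values.

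The members, the lists of related genes, the motifs and the rule for printing values were chosen with earlier results of these data known. Values on all 12 arrays are printed for the 4 called members with the smallest adjusted p per direction in each comparison with no RA, the 2 per direction between RA times, and a set list of catalytic subunits, activators and others, 20 genes in all; other members are given by differences, ranges and counts. Promoters were read from RefSeq windows on GRCm38.p6; the array files name no build. Tables and figures were made with Python 3.11.15, pandas 2.3.3, numpy 2.4.6 and matplotlib 3.10.9. Alternatives covered normalization, choice of probe sets, variance model, array weights, the arrays fitted, replicate letter as a block, the threshold and leaving out each array.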

Additional observations from a re-analysis of the deposited data

How the results depend on the processing

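Counts of members called (0, 8, 14, 7, 0 and 12 for 2, 4 and 6 h against no RA, 4 against 2 h, 6 against 4 h and 6 against 2 h) moved by over 1.5 times under these settings. With a trended, robust variance 13 were called at 4 h, beside 2499 higher and 2705 lower of all 18193 genes. From 2 to 4 h that variance called 12, beside 2509 genes higher and 2216 lower. With only the 6 arrays compared, 5 were called at 4 h (1423 of all genes higher and 1658 lower) and 8 at 6 h (1799 and 1819). At an adjusted p under 0.01 these were 5 and 9, and 4 from 2 to 4 h, with all genes not counted at that threshold. With every probe set tested 4 were called from 2 to 4 h (4163 of 45037 probe sets higher and 3191 lower). With dim genes left out 11 were called in that step (2418 of 11690 genes higher and 2102 lower). With array weights 11 were called from 2 to 4 h (3258 of all genes higher and 3305 lower) and 20 from 2 to 6 h (3878 and 4012). The counts of all genes thus moved between settings as well. Leaving out each array gave 7 to 9 at 4 h, 12 to 14 at 6 h, 4 to 5 from 2 to 4 h and 9 to 11 from 2 to 6 h. At 2 h and from 4 to 6 h the count was 0 under every setting run. No named difference that was called changed its sign. The cause of these moves was not tested, except that fits of 6 arrays have fewer residual degrees of freedom.

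With the replicate block the counts were 0, 8, 14, 6, 0 and 9. Same-lettered samples correlated in their deviations at -0.13 to 0.31, not all above 0.1, so the letters were not taken as a pairing.

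Low signal limits what can be read from Psmb11 and the other probe sets among the 16 below the median on all arrays. Differences under about 0.1, as for most core genes, lie within the error of 3 arrays a group.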
